A study of Mus musculus with 12 samples.

Results

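The genes described here are the collagen chain genes of mouse embryonic fibroblasts other than those of the main cartilage collagens. They were chosen by symbol alone: every gene of the deposited table whose symbol is Col, a type number, the letter a and a chain number was taken, except Col2a1, Col9a1, Col9a2, Col9a3, Col11a1 and Col11a2. This gave 38 of the 24054 genes in the table, of which 36 had enough counts to be tested. Col10a1, the chain of the type X collagen made by hypertrophic chondrocytes, was not among the 6 symbols left out and is therefore included.

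Polyadenylated RNA was sequenced from primary mouse embryonic fibroblasts (MEFs), a mixed culture of connective tissue cells grown from embryos. The purpose was to find transcripts that differ from wild type when BLM, RECQL1 or both are lost, 2 DNA helicases of the RecQ family encoded by Blm and Recql. The genotype labels were Recql KO (Recql -/-), Blm KO (Blm -/-), Blm Recql KO (Blm -/- Recql -/-) and WT, with 3 libraries each and 12 in total, and all cells were kept in DMEM with 10% serum, 5% CO2 and 3% O2. Strain, embryo age, sex and allele design are not in the labels. Nor do they tell if 3 libraries of 1 genotype stem from different embryos or cultures, and p-values then reflect the spread between the libraries alone, which may in part be technical.

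Library totals lay between 47758552 and 59296354 expected counts. Levels are CPM, counts divided by a library size that was adjusted by the trimmed mean of M values (TMM), and differences are log2 fold changes with the standard error (SE) of an edgeR fit to all 12 libraries. A gene was called higher or lower at an adjusted p under 0.05. Blm stood at 5.64, 3.18 and 3.58 CPM in Blm KO and 5.66, 6.99 and 3.85 in Blm Recql KO, against 21.9, 21.7 and 18.6 in WT. Recql stood at 21.7, 24.3 and 29.8 CPM in the libraries labelled Recql KO and 18.7, 35.6 and 24.7 in Blm Recql KO, against 25.6, 28.1 and 29.3 in WT. The transcript thus overlapped with WT and was not called lower (Recql KO against WT -0.13 ± 0.20, edgeR adjusted p = 0.642). The labels name a genotype and no transcript level, so the Recql labels could not be checked by it. Recql shares 2895 exonic bases with Pyroxd1 on the opposite strand, and the strand setting of the counting is not given in the sources used here. Every direction given below for Recql KO or Blm Recql KO rests on those labels. Summed Y-linked transcripts were above 100 CPM in all WT libraries but in only 1 library of each other genotype, and stood at 28.7 CPM in Recql KO replicate 2. The 10 fibroblast markers summed to 5832 to 6531 CPM in Recql KO, 6521 to 7840 in Blm KO, 6394 to 6711 in Blm Recql KO and 6684 to 7245 in WT.

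Collagens are extracellular proteins in which 3 chains wind into a triple helix. Fibrillar collagens (types I, III, V, XXIV and XXVII here) form the banded fibrils that give skin, tendon and bone their tensile strength, type IV collagens form the network of basement membranes, and type VI collagen forms beaded filaments around cells. Fibril-associated chains sit on the surface of fibrils, short-chain collagens build hexagonal networks, multiplexins belong to basement membrane zones, and transmembrane chains are anchored in the cell surface. Fibroblasts are the main source of type I and type III collagen in connective tissue.

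Sequence upstream of the start is shown for Col1a2, Col3a1 and Col10a1, chains called lower in Recql KO below that differ in the motifs carried or in their position. Each line holds the 250 bases before the RefSeq start on GRCm38.p6, 5′ to 3′ on the plus strand, at chr6:4505368-4505617 for Col1a2, chr1:45311288-45311537 for Col3a1 and chr10:34389731-34389980 for Col10a1. Capitals mark matches on either strand to the motif CCAAT, to the motif TATAAA or to the motif GGGCGG.
Col1a2: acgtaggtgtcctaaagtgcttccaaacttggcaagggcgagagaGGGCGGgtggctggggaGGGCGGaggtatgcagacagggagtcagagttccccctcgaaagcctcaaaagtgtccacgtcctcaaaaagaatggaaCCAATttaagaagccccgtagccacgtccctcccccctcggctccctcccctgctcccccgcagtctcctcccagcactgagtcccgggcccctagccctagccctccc
Col3a1: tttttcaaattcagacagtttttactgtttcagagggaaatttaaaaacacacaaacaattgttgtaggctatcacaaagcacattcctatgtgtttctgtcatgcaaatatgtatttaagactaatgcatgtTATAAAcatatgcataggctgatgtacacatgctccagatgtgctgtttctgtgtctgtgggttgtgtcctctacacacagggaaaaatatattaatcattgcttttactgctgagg
Col10a1: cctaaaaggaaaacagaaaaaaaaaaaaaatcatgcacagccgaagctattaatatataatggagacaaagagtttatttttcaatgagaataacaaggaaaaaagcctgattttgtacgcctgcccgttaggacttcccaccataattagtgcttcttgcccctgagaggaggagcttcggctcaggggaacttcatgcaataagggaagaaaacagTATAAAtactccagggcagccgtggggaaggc
The Col1a2 window held CCAAT at position -109 and GGGCGG at 2 places. In the Col3a1 window TATAAA stood at -117, and in that of Col10a1 at -32. Windows were available for 31 of the 38 genes. CCAAT was found in 11 of their 33 windows, against 33.8% of all 32851 windows of this length, TATAAA in 4 against 12.4%, and GGGCGG in 19 against 32.7%. In 2 cases a match overlapped the next one, and a match describes letters only.

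In these cells the collagen chain genes took 2.18% ± 0.27 of all counts in Recql KO, 4.58% ± 0.57 in Blm KO, 4.41% ± 0.22 in Blm Recql KO and 3.36% ± 0.10 in WT (SD, n = 3 each). The 3 Recql KO libraries held 2.16%, 1.91% and 2.46%, all below the lowest WT library at 3.26%. The 3 Blm KO libraries (3.94% to 5.05%) and the 3 Blm Recql KO libraries (4.23% to 4.65%) all lay above the highest WT library at 3.47%. Fibrillar chains made up most of it, with 1.38% ± 0.22 of all counts in Recql KO, 3.60% ± 0.56 in Blm KO, 3.29% ± 0.21 in Blm Recql KO and 2.52% ± 0.06 in WT. Type IV chains took 0.302% ± 0.013, 0.263% ± 0.029, 0.409% ± 0.018 and 0.252% ± 0.056 in the same order of genotypes, so they were not the lowest in Recql KO. In bulk RNA, fewer cells of a type and less RNA per cell cannot be told apart.

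**Figure D1:**
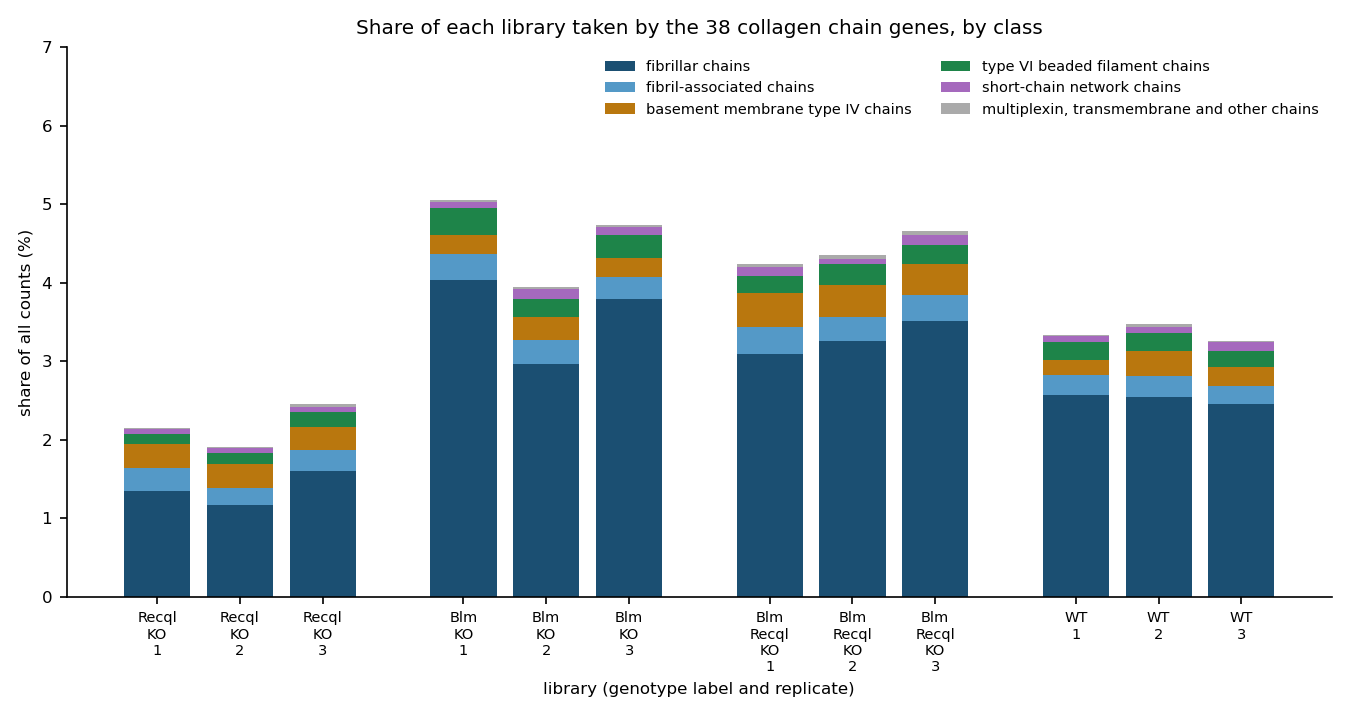
Share of all counts in each library (vertical axis, %) taken by the 38 collagen chain genes, stacked by class, for the 3 libraries of each genotype label (horizontal axis). The whole bars of the Recql KO libraries end between 1.91% and 2.46%, below the WT libraries at 3.26% to 3.47%, and the Blm KO and Blm Recql KO bars end above them.

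Levels per transcript length spanned a wide range. In Recql KO the mean levels were highest for Col1a1 at 934 CPM per kilobase, Col1a2 at 651, Col5a2 at 307 and Col5a1 at 227, and Col3a1 stood at place 10 with 112. In WT the order was Col1a1 at 1687 CPM per kilobase, Col1a2 at 1211, Col3a1 at 493, Col5a2 at 429 and Col5a1 at 322. In every library 5 genes exceeded 1000 CPM, Col1a1, Col1a2, Col5a1, Col5a2 and Col12a1. At the other end 6 genes stayed under 1 CPM in every library, Col13a1, Col17a1, Col26a1, Col6a4, Col6a5 and Col6a6, with a highest value of 0.525 CPM.

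Against WT, 11 of the 36 tested chains were lower in Recql KO and 0 were higher. That is 30.6% of the members, where 15.6% of all 14876 tested genes were called lower and 14.2% higher (29.9% in either direction). The median log2 fold change was -0.45 over the members and -0.01 over all genes. In 14 members every Recql KO library was below every WT library (38.9%, against 25.4% of all genes), and in 1 member, Col22a1, every library was above (23.9% of all genes). Col26a1 and Col6a4 are among these 14. Both stayed under 1 CPM in every library, so their places in this count are no support. The 11 called genes were Col1a1, Col1a2, Col3a1, Col5a1, Col5a2, Col6a1, Col6a2, Col8a2, Col10a1, Col14a1 and Col26a1. Since Col26a1 passed the filter on low counts only through the other genotypes, it had to differ from Recql KO, and without it 10 of 35 were called (28.6%). Without Recql KO replicate 2, the library with an intermediate level of Y-linked transcripts, 7 were called, and Col26a1, Col5a1, Col5a2 and Col8a2 were not. In the fit of Recql KO and WT alone, Col22a1, Col27a1 and Col6a4 were called as well and Col26a1 was not. A fit of the Y-high libraries alone (those over 100 CPM of Y-linked transcripts) has 1 library per KO genotype, assumed to vary like WT, and there 4 were called, Col1a1, Col3a1, Col6a1 and Col6a2.

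In Blm KO, edgeR called 0 chains against WT, where 0.753% of all genes were called in either direction (0.363% higher and 0.39% lower). At an unadjusted p under 0.05 there were 7 chains of 36, all with higher values in Blm KO, against 18.9% of all genes in either direction, and DESeq2 called 4, Col16a1, Col1a2, Col5a1 and Col5a2. Every Blm KO library was above every WT library in 8 members (22.2%, against 12.7% of all genes) and below in 0 (12.1% of all genes). For Blm Recql KO, edgeR likewise called 0 chains against WT (0.121% of all genes, 0.0739% higher and 0.0471% lower). An unadjusted p under 0.05 was reached by 14, of which 13 had higher values in Blm Recql KO and Col10a1 a lower one, against 10.8% of all genes in either direction. DESeq2 called 4, Col1a2, Col4a1, Col4a2 and Col5a1. All Blm Recql KO libraries lay above all WT libraries in 13 members (36.1%, against 7.29% of all genes) and below in 1, Col10a1 (6.8% of all genes). Col6a5 is among these 13 and among the 14 with an unadjusted p under 0.05. It stayed under 1 CPM in every library and passed the filter on low counts only through Blm Recql KO, so its place in these counts is no support. The median log2 fold changes were 0.26 in Blm KO and 0.43 in Blm Recql KO, with 0.00 and 0.01 over all genes. The 3 comparisons share the WT libraries. Without WT replicate 2, Col4a1 and Col4a2 were called higher in Blm Recql KO. Calls of higher values also appeared in Blm KO without Blm KO replicate 2 (Col1a2), without Blm Recql KO replicate 2 (Col1a2 and Col5a2) and without Blm Recql KO replicate 3 (Col1a2). Without Blm KO replicate 1, Col24a1 was called lower in Blm KO.

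Relative to Recql KO, 13 chains were higher in Blm Recql KO and 0 were lower (36.1% of the members, against 13.2% higher, 11.6% lower and 24.7% in either direction of all genes). These were Col1a1, Col1a2, Col3a1, Col5a1, Col5a2, Col27a1, Col4a1, Col4a2, Col6a1, Col6a2, Col14a1, Col26a1 and Col28a1. Without Col26a1, 12 of 35 were called (34.3%). In 18 members every Blm Recql KO library was above every Recql KO library (50%, against 22.5% of all genes, with 21.1% below). Between Blm Recql KO and Blm KO only Col4a1 and Col4a2 were called, both higher in Blm Recql KO (5.56% of the members, against 0.934% higher, 1.02% lower and 1.96% in either direction of all genes). All Blm Recql KO libraries lay above all Blm KO libraries in 6 members and below in 4, against 12% and 14.1% of all genes. Col6a5, which passed the filter on low counts only through Blm Recql KO, is among the 18 and among the 6. Col26a1 and Col6a4 are among the 18 as well. All of these genes stayed under 1 CPM in every library, so their places in these counts are no support. Summed markers of other cell types differed without overlap in the same comparison, and their part in the result was not tested. Epithelial and mesothelial markers summed to 73.6 to 112 CPM in Blm Recql KO, against 30.3 to 47.1 CPM in Blm KO, smooth muscle markers to 6574 to 7967 CPM, against 3123 to 6308 CPM in Blm KO, and Schwann and neural markers to 391 to 435 CPM, against 239 to 276 CPM in Blm KO. Of these markers, edgeR called 0 of 8, 0 of 8 and 0 of 7 tested, where 1.96% of all genes were called in either direction. All Blm Recql KO libraries lay above all Blm KO libraries in 4, 4 and 4 of them, against 12% of all genes. They lay below in 0, 0 and 1, against 14.1% of all genes. Lower in Blm Recql KO were the summed chondrocyte markers (89.2 to 107 CPM, against 172 to 242 CPM in Blm KO) and endothelial markers (15.7 to 20.9 CPM, against 23.6 to 44.2 CPM in Blm KO). Of 10 tested chondrocyte markers 6 had negative and 4 positive differences, with 1 called lower and 0 higher. The endothelial sum did not stand for its list. There 5 of 7 tested markers had positive and 2 negative differences, with 1 called higher and 1 lower.

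**Figure D2:**
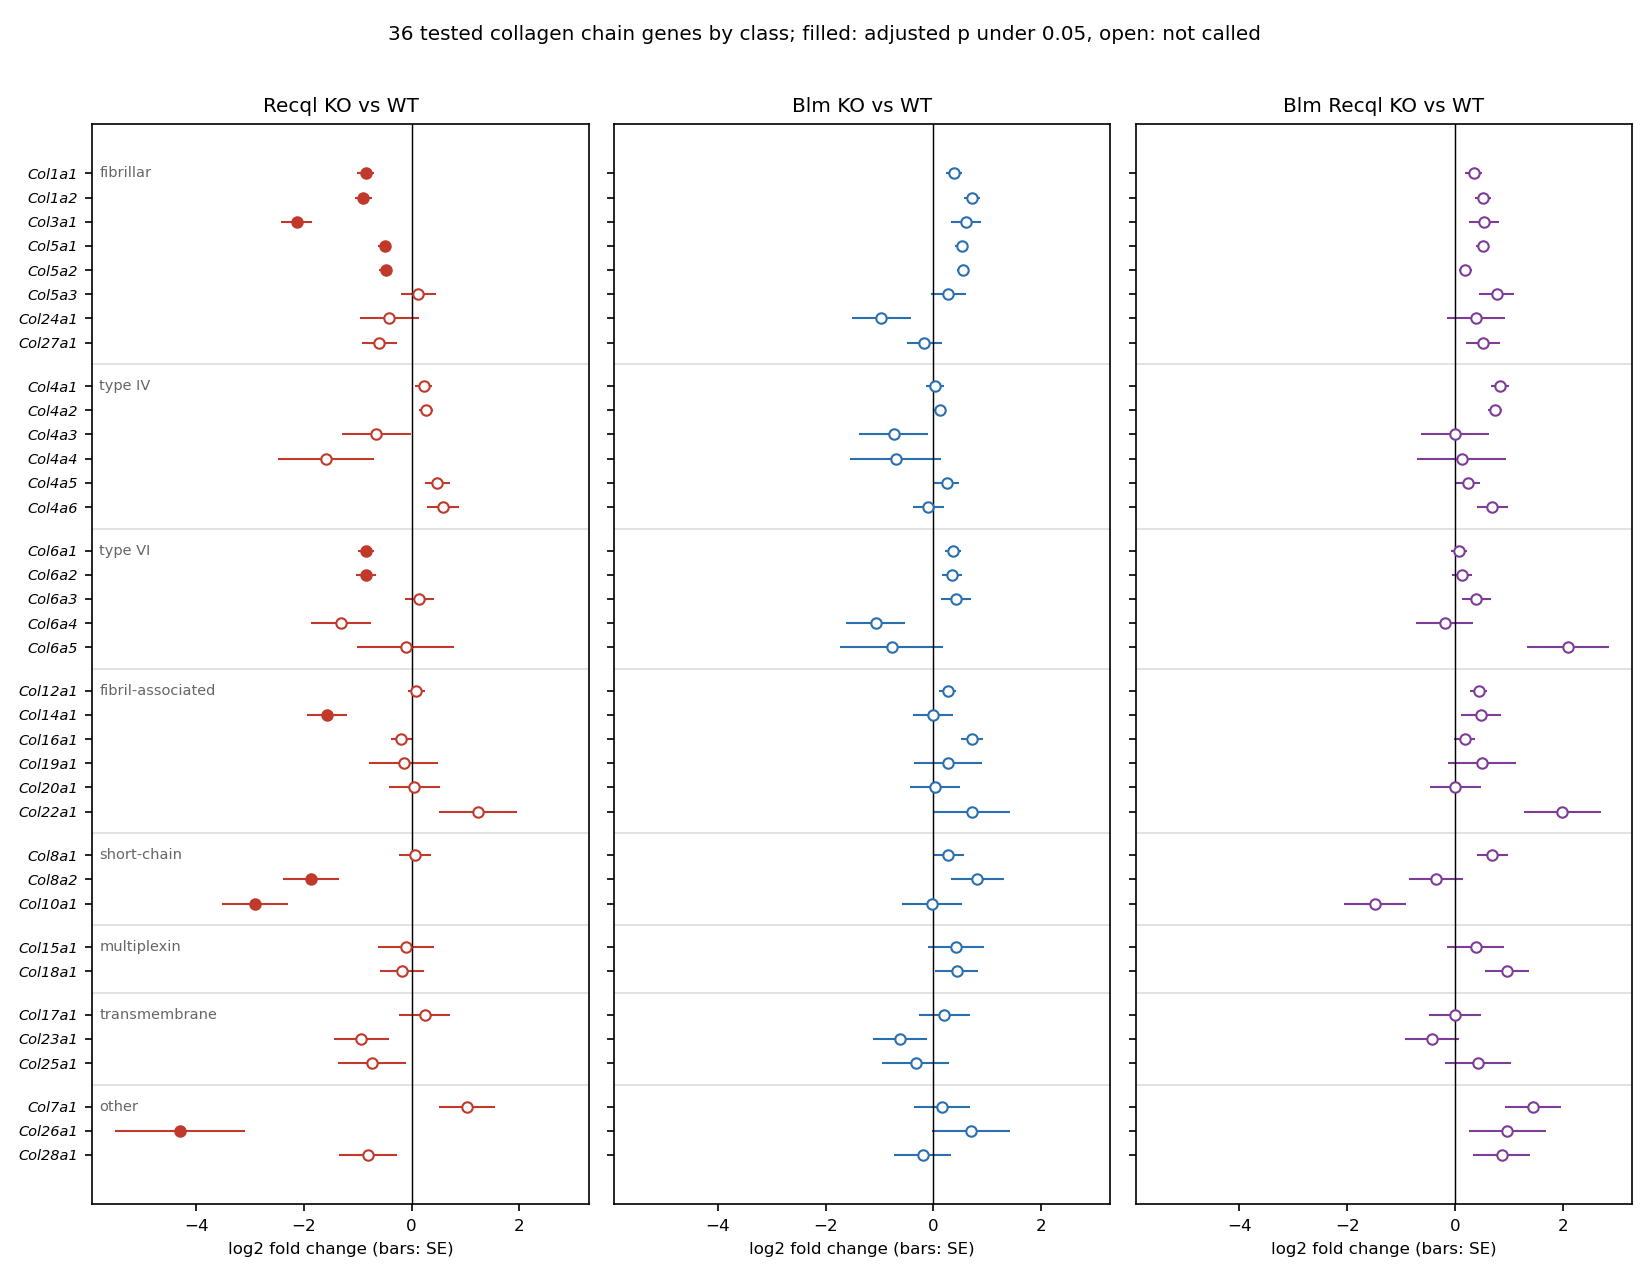
Log2 fold change against WT (horizontal axis, points, with bars for the SE) of the 36 tested collagen chain genes, ordered by class down the page, in Recql KO, Blm KO and Blm Recql KO from left to right. Filled points passed an adjusted p of 0.05: 11 genes in Recql KO, all on the lower side, and none in Blm KO or Blm Recql KO.

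Type I collagen, the most abundant fibrillar collagen, is made of chains from Col1a1 (GRCm38 with GENCODE vM21 genes, as for all positions below, chromosome 11, 94936224 to 94953042, plus strand) and Col1a2 (chromosome 6, 4504814 to 4541544, plus strand). Col1a1 had 5595, 4555 and 6473 CPM in Recql KO, against 10212, 9593 and 10213 CPM in WT. It was 1.81-fold lower in Recql KO, with no overlap between the libraries (log2 fold change -0.85 ± 0.15 SE, adjusted p = 0.00303). Its levels were 14958, 10700 and 13533 CPM in Blm KO and 11883, 13501 and 12868 CPM in Blm Recql KO, all above the WT libraries, but neither difference passed the test (0.38 ± 0.15, adjusted p = 0.218, and 0.35 ± 0.15, adjusted p = 0.451). Col1a2 had 3638, 2932 and 3874 CPM in Recql KO, against 7040, 6729 and 5653 CPM in WT. It was 1.86-fold lower (-0.90 ± 0.15, adjusted p = 0.00215), a call lost only among the Y-high libraries alone (-0.83, adjusted p = 0.051). In Blm KO it stood at 11572, 9153 and 11096 CPM and in Blm Recql KO at 8408, 8884 and 10552, again above all WT libraries. The test against WT gave 0.71 ± 0.15 in Blm KO (edgeR adjusted p = 0.0613, DESeq2 adjusted p = 0.000348) and 0.52 ± 0.15 in Blm Recql KO (edgeR adjusted p = 0.23, DESeq2 adjusted p = 0.033). Blm Recql KO exceeded Recql KO in both chains, 2.30-fold in Col1a1 (1.2 ± 0.16, adjusted p = 0.000693) and 2.67-fold in Col1a2 (1.41 ± 0.15, adjusted p = 0.000314). Col1a1 held values that were not whole in 10 of 12 libraries, where some reads were shared out with other transcripts.

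Col3a1 (chromosome 1, 45311538 to 45349706, plus strand), the only chain of type III collagen, which forms thin fibrils with type I in skin and vessels, had the largest log2 difference between Recql KO and WT of the 8 fibrillar chains. It had 551, 449 and 875 CPM in Recql KO, 5337, 2618 and 4641 in Blm KO, 3844, 3445 and 4660 in Blm Recql KO and 2761, 2681 and 2787 in WT. The Recql KO libraries lay far below all others, and those of WT were close together. Col3a1 was 4.39-fold lower in Recql KO than in WT (-2.13 ± 0.29, adjusted p = 0.000855) and 6.37-fold higher in Blm Recql KO than in Recql KO (2.67 ± 0.29, adjusted p = 0.000368). Against WT it gave 0.61 ± 0.28 in Blm KO (adjusted p = 0.265), where the libraries overlapped, and 0.54 ± 0.28 in Blm Recql KO (adjusted p = 0.525), where they did not.

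Type V collagen regulates the diameter of type I fibrils. Its main chains, Col5a1 (chromosome 2, 27886425 to 28039514, plus strand) and Col5a2 (chromosome 1, 45374321 to 45503282, minus strand), were lower in Recql KO by less than the type I chains. Col5a1 had 1850, 1707 and 2179 CPM in Recql KO, against 2281, 3076 and 2771 CPM in WT (-0.50 ± 0.13, adjusted p = 0.0141). Col5a2 had 2134, 1791 and 2177 CPM in Recql KO, against 2746, 2819 and 2957 CPM in WT (-0.48 ± 0.12, adjusted p = 0.0129). For both genes the libraries of the 2 genotypes did not overlap, but the calls rested on single libraries. Without Recql KO replicate 2 neither passed (-0.42, adjusted p = 0.0668 for Col5a1 and -0.39, adjusted p = 0.0594 for Col5a2), and Col5a1 also missed the threshold without Recql KO replicate 1 (-0.47, adjusted p = 0.0535) and without WT replicate 2 (-0.40, adjusted p = 0.0534). Neither was called among the Y-high libraries alone (adjusted p = 0.153 and 0.134). In Blm KO, Col5a1 stood at 3672, 3961 and 4069 CPM and Col5a2 at 3599, 4362 and 4526 CPM, all above WT (0.53 ± 0.13, edgeR adjusted p = 0.0904, and 0.55 ± 0.12, edgeR adjusted p = 0.0638). In Blm Recql KO they stood at 3708, 3858 and 4048 CPM and at 3369, 2913 and 3450 CPM. Both were higher than in Recql KO (1.02 ± 0.13, adjusted p = 0.000653 for Col5a1 and 0.67 ± 0.12, adjusted p = 0.00318 for Col5a2).

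**Figure D3:**
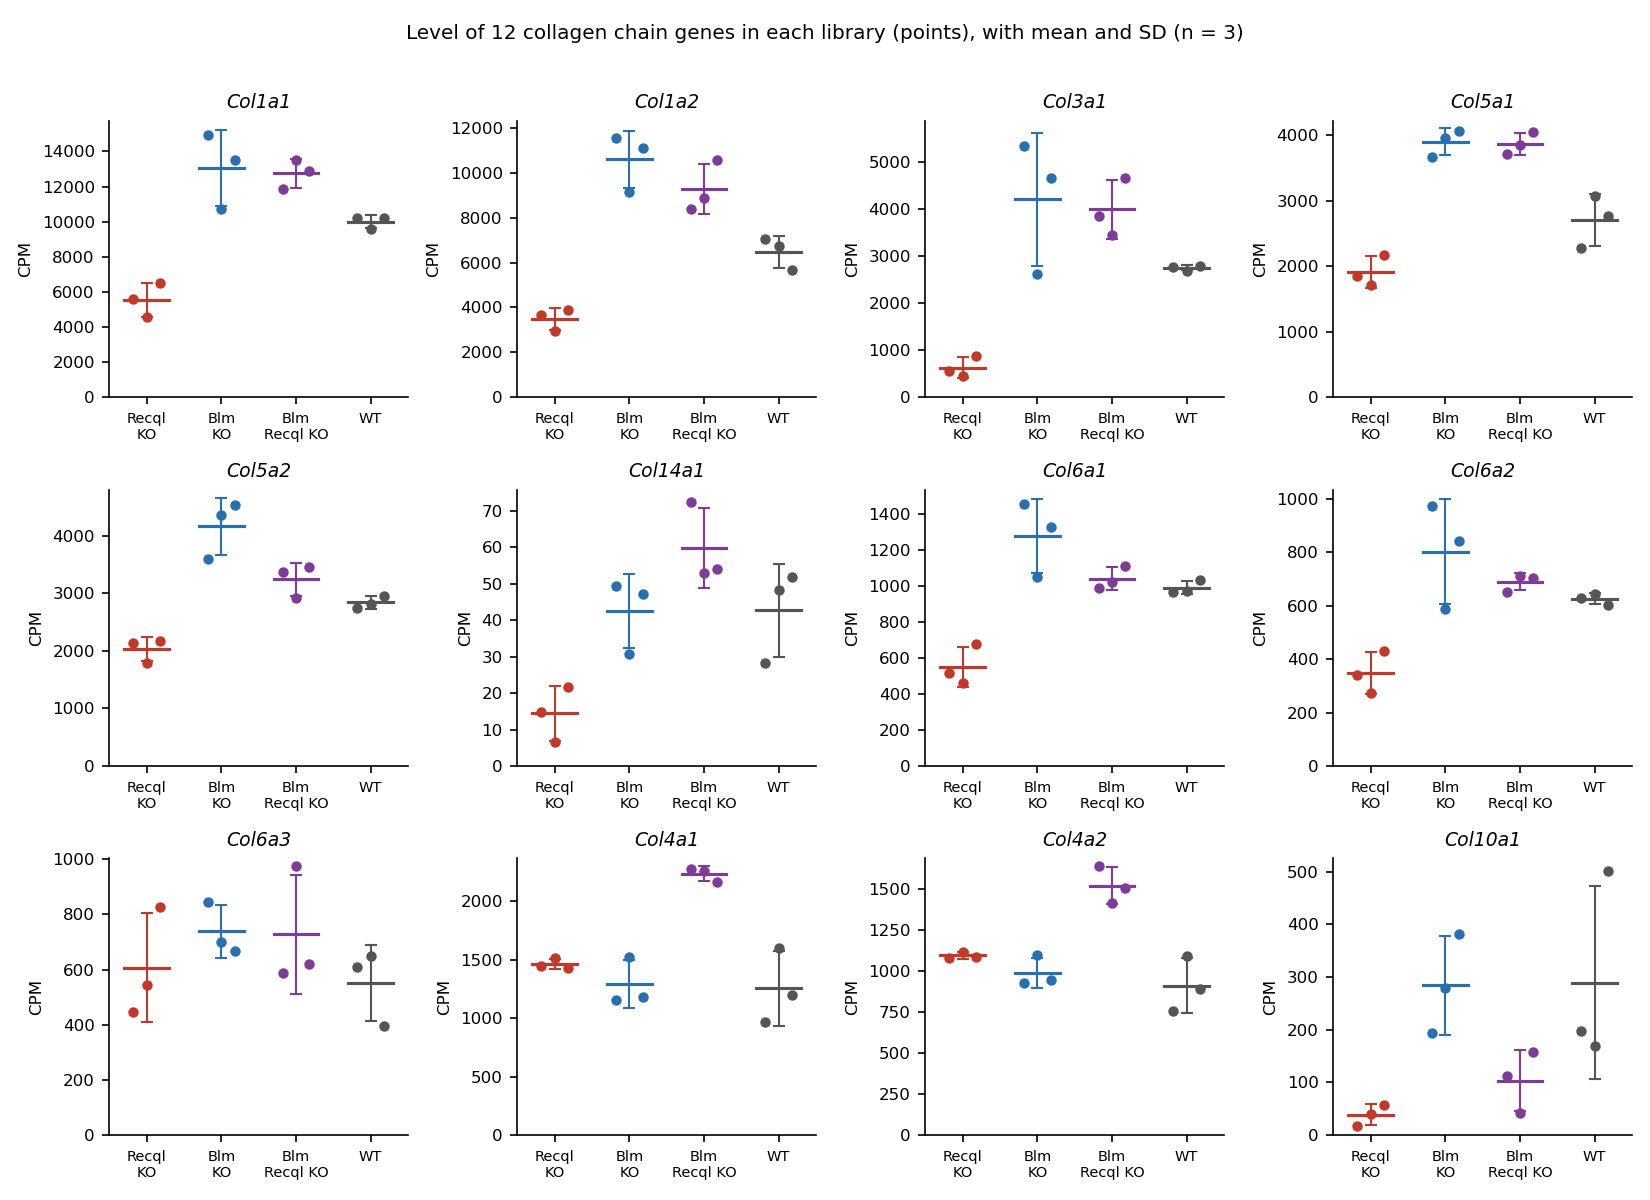
Level in CPM (vertical axes, from 0) of 12 collagen chain genes in each of the 3 libraries of Recql KO, Blm KO, Blm Recql KO and WT (points), with the mean (line) and SD (bar). Col3a1 lies at 449 to 875 CPM in Recql KO and at 2618 to 5337 CPM in all other libraries, while Col6a3 overlaps between Recql KO and WT and Col4a1 is highest in Blm Recql KO at 2162 to 2281 CPM.

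The minor fibrillar chains had lower levels. Col5a3, a type V chain, averaged 75.2 ± 26.3 CPM in Recql KO, 84.0 ± 9.78 in Blm KO, 118 ± 45.2 in Blm Recql KO and 69.2 ± 20.7 in WT (SD, n = 3), and was not called in any comparison. Col24a1 and Col27a1 encode chains related to the fibrillar collagens of developing bone and cartilage. Every Recql KO library of Col24a1 (12.2, 17.3 and 18.1 CPM) and Col27a1 (17.0, 20.8 and 21.5 CPM) was below every WT library (18.6 to 23.3 and 23.4 to 35.8 CPM), without a call (-0.42, adjusted p = 0.594, and -0.60, adjusted p = 0.181). In the fit of Recql KO and WT alone, Col27a1 was called. Col27a1, at 28.5, 62.3 and 38 CPM in Blm Recql KO, was higher there than in Recql KO (2.17-fold, adjusted p = 0.0295). That call was lost when any 1 of the Recql KO libraries was left out (adjusted p = 0.0631 to 0.103), without Blm Recql KO replicate 2 (0.75, adjusted p = 0.103) and without Blm Recql KO replicate 3 (adjusted p = 0.0534).

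Of the 6 fibril-associated chains, Col14a1 alone was called against WT by edgeR in the fit of all 12 libraries. Col14a1 (chromosome 15, 55307750 to 55520803, plus strand) encodes type XIV collagen, which binds the surface of fibrils and limits their growth. It had 14.8, 6.71 and 21.6 CPM in Recql KO, 49.3, 30.8 and 47.1 in Blm KO, 72.5, 52.8 and 54.1 in Blm Recql KO and 28.2, 48.1 and 51.9 in WT. All Recql KO libraries were below all others, 2.97-fold against WT (-1.57 ± 0.38, adjusted p = 0.012), and Blm Recql KO exceeded Recql KO 4.16-fold (2.06 ± 0.38, adjusted p = 0.00434). Among the Y-high libraries alone the differences were -1.53 and 1.82, with neither call held (adjusted p = 0.0807 and 0.109). Col12a1, the related chain of type XII collagen, was far more abundant. It had 2869, 1804 and 2273 CPM in Recql KO, 2654, 2826 and 2384 in Blm KO, 3131, 2767 and 2974 in Blm Recql KO and 2272, 2333 and 1944 in WT, with overlap between Recql KO and WT (0.08 ± 0.15, adjusted p = 0.709) and with all Blm KO and Blm Recql KO libraries above WT without a call. Col16a1 stood at 162, 220 and 240 CPM in Recql KO, 461, 313 and 396 in Blm KO, 257, 248 and 300 in Blm Recql KO and 186, 234 and 291 in WT. Its Blm KO libraries were above all WT libraries, which passed with DESeq2 but not with edgeR (0.72 ± 0.20, edgeR adjusted p = 0.118). Col19a1, Col20a1 and Col22a1 reached at most 6.81, 1.38 and 3.20 CPM in any library and were not called in the fit of all 12 libraries. Col22a1, with every Recql KO library above every WT library, was called in the fit of those genotypes alone.

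Type VI collagen assembles from 1 chain each of Col6a1, Col6a2 and Col6a3, of which the first pair was called lower in Recql KO and Col6a3 was not called. Col6a1 (chromosome 10, 76708792 to 76726168, minus strand) had 519, 462 and 677 CPM in Recql KO, 1456, 1053 and 1329 in Blm KO, 989, 1022 and 1111 in Blm Recql KO and 965, 974 and 1033 in WT. Its neighbour Col6a2 (chromosome 10, 76595762 to 76623630, minus strand) had 340, 271 and 429 CPM in Recql KO, 973, 586 and 843 in Blm KO, 652, 711 and 705 in Blm Recql KO and 629, 644 and 604 in WT. Both were lowest in Recql KO without overlap with WT, 1.79-fold for Col6a1 (-0.84 ± 0.15, adjusted p = 0.00269) and 1.80-fold for Col6a2 (-0.85 ± 0.19, adjusted p = 0.00757). Col6a3 (chromosome 1, 90765923 to 90843971, minus strand) had 448, 544 and 828 CPM in Recql KO, 847, 701 and 668 in Blm KO, 589, 974 and 619 in Blm Recql KO and 608, 650 and 394 in WT. Recql KO overlapped with WT, while all Blm KO libraries were above all WT libraries without a call (0.42 ± 0.27, adjusted p = 0.413). The difference between Recql KO and WT was 0.14 ± 0.27 (adjusted p = 0.728), with the sign turned without Recql KO replicate 3 (-0.15) and without WT replicate 3 (-0.05). Against Recql KO, the Blm Recql KO libraries were higher in Col6a1 (0.91 ± 0.15, adjusted p = 0.0022) and Col6a2 (0.99 ± 0.19, adjusted p = 0.00431) but not called in Col6a3 (0.26 ± 0.27, adjusted p = 0.508). Col6a4, Col6a5 and Col6a6, which lie in a row on chromosome 9 and encode chains that can replace the Col6a3 chain, had few counts. Col6a5 held 9 counts over the Recql KO libraries, 6 in Blm KO, 44 in Blm Recql KO and 10 in WT, and Col6a6 was not tested. Col6a5 thus passed the filter on low counts only through Blm Recql KO. Col6a4 was called in Recql KO against WT only in the fit of those genotypes alone and without Blm KO replicate 2.

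Type IV collagen of most basement membranes is built from the chains of Col4a1 (chromosome 8, 11198423 to 11312826, minus strand) and Col4a2 (chromosome 8, 11312805 to 11449287, plus strand). The 2 genes point away from each other and their annotated starts overlap by 22 bases, shown here because they mark the shared start (chr8:11312805-11312826, GRCm38, plus strand, capitals marking a match to the motif GGGCGG).
Col4a1 and Col4a2 start overlap: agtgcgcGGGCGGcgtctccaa
Without the strand setting, reads from these 22 bases cannot be assigned to 1 of the genes, a small part of the 6615 and 6450 bases of their transcripts. Col4a1 had 1450, 1514 and 1429 CPM in Recql KO, 1158, 1527 and 1185 in Blm KO, 2281, 2262 and 2162 in Blm Recql KO and 969, 1603 and 1198 in WT. Col4a2 had 1081, 1118 and 1085 CPM in Recql KO, 927, 1095 and 943 in Blm KO, 1641, 1414 and 1505 in Blm Recql KO and 755, 1090 and 888 in WT. For both genes the 3 Blm Recql KO libraries were above the other 9, while Recql KO overlapped with WT. Neither was called in Recql KO (0.22 ± 0.17, adjusted p = 0.336 for Col4a1 and 0.27 ± 0.13, adjusted p = 0.139 for Col4a2), although both were called higher without WT replicate 2 (0.44, adjusted p = 0.0426, and 0.42, adjusted p = 0.0255). Their levels in Blm Recql KO were 1.73-fold and 1.54-fold higher than in Blm KO (0.79 ± 0.17, adjusted p = 0.0401, and 0.62 ± 0.13, adjusted p = 0.0385) and 1.53-fold and 1.39-fold higher than in Recql KO (0.61 ± 0.17, adjusted p = 0.0226, and 0.47 ± 0.13, adjusted p = 0.0217). The differences from WT were as large but missed the threshold with edgeR (0.83 ± 0.17, adjusted p = 0.0942, and 0.74 ± 0.13, adjusted p = 0.0673), while DESeq2 gave adjusted p = 0.000468 and 2.81e-05. The calls against Blm KO were lost in the fit of those 2 genotypes alone (adjusted p = 0.0939 and 0.11). They were also lost when any of 8 libraries was left out: each Recql KO library, Blm KO replicate 1 or 3, Blm Recql KO replicate 1 or 2, or WT replicate 3 (adjusted p = 0.0537 to 0.188). Against Recql KO, both calls were lost without any 1 Recql KO library (adjusted p = 0.0614 to 0.0674) and without Blm Recql KO replicate 1 (adjusted p = 0.0515 and 0.0654), and that of Col4a2 without Blm Recql KO replicate 3 (adjusted p = 0.0502).

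The other type IV chains belong to specialised basement membranes such as that of the kidney glomerulus. Col4a5 averaged 406 ± 59.2 CPM in Recql KO, 347 ± 78.7 in Blm KO, 345 ± 58.7 in Blm Recql KO and 292 ± 79.1 in WT (SD, n = 3). Its neighbour Col4a6 averaged 39.3 ± 10.6, 24.6 ± 5.47, 42.4 ± 7.20 and 26.3 ± 9.26 CPM in the same order. Neither was called, and all Blm Recql KO libraries of Col4a6 (37.9 to 50.7 CPM) were above all WT libraries (15.8 to 33.3 CPM). Col4a3 and Col4a4, neighbours 71 bases apart on chromosome 1, reached at most 2.20 and 1.51 CPM and were not called.

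Among the short-chain collagens, Col8a2 and Col10a1 were lower in Recql KO and Col8a1 was not called. Col8a1 and Col8a2 encode the chains of type VIII collagen, found under endothelia. Col8a1 had 712, 549 and 518 CPM in Recql KO, 449, 1033 and 580 in Blm KO, 1072, 605 and 1077 in Blm Recql KO and 556, 574 and 568 in WT, with values that were not whole in all 12 libraries. Col8a2 (chromosome 4, 126286793 to 126314330, plus strand) had 11.3, 14.4 and 20.2 CPM in Recql KO, 132, 64.2 and 98.5 in Blm KO, 59.8, 15.6 and 55.9 in Blm Recql KO and 44.3, 34.7 and 88.2 in WT. It was 3.64-fold lower in Recql KO than in WT without overlap (-1.87 ± 0.51, adjusted p = 0.0211). The call was lost without Recql KO replicate 1 (-1.68, adjusted p = 0.0798), Recql KO replicate 2 (-1.82, adjusted p = 0.0726) or WT replicate 3 (-1.36, adjusted p = 0.0836), and among the Y-high libraries alone (-2.30, adjusted p = 0.121). Col10a1 (chromosome 10, 34389981 to 34397085, plus strand) had 17.4, 40.8 and 57.4 CPM in Recql KO, 194, 278 and 381 in Blm KO, 111, 42.2 and 157 in Blm Recql KO and 198, 170 and 501 in WT. It was 7.51-fold lower in Recql KO (-2.91 ± 0.61, adjusted p = 0.00632), a call lost among the Y-high libraries alone (-4.06, adjusted p = 0.0772). In Blm Recql KO all libraries were below all WT libraries too, without a call (-1.48 ± 0.58, adjusted p = 0.394).

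The remaining chains were scarce or varied within genotypes. Col18a1 and Col15a1 encode multiplexins whose ends can be cleaved off as endostatin and a related fragment. Col18a1 had 58.3, 44.6 and 137 CPM in Recql KO, 127, 84.9 and 154 in Blm KO, 155, 172 and 200 in Blm Recql KO and 72.4, 131 and 66.8 in WT. Its Blm Recql KO libraries were above all WT libraries without a call (0.96 ± 0.40, adjusted p = 0.428). Col15a1 lay between 9.82 and 36.7 CPM over all libraries, also without a call. Col7a1, which forms the anchoring fibrils of skin, varied widely within WT (50.2, 122 and 37.0 CPM) and stood at 81.3, 162 and 182 CPM in Recql KO, 76.8, 91.0 and 66.3 in Blm KO and 81.6, 304 and 186 in Blm Recql KO. It was not called against WT (1.02 ± 0.52, adjusted p = 0.16 in Recql KO) except in Recql KO without WT replicate 2. Of the transmembrane chains, Col23a1 averaged 4.74 ± 1.32 CPM in Recql KO, 5.89 ± 3.82 in Blm KO, 6.73 ± 3.21 in Blm Recql KO and 9.06 ± 3.08 in WT, Col25a1 reached at most 5.08 CPM, and neither was called.

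Col26a1 and Col28a1, both with few counts, were called in comparisons with Recql KO. Col26a1 held 1 count over the 3 Recql KO libraries, 47 in Blm KO, 54 in Blm Recql KO and 27 in WT. The rate in Recql KO was 0.0376 of that in WT (95% exact interval 0.000917 to 0.228, counting error only), and edgeR gave adjusted p = 0.0226. This gene passed the filter on low counts only through the other genotypes, so its p-value and exact intervals lend the difference no support of their own. Its call was lost without Recql KO replicate 2 (adjusted p = 0.0802), Recql KO replicate 3 (0.0643 as adjusted p) or WT replicate 3 (0.0662 as adjusted p), and among the Y-high libraries alone (adjusted p = 0.205). Against Blm Recql KO the rate in Recql KO was 0.0193 (95% exact interval 0.000479 to 0.112). Col28a1 had 17.9, 3.13 and 5.06 CPM in Blm Recql KO, against 2.69, 2.1 and 3.40 CPM in Recql KO. These libraries overlapped, and the call (1.67 ± 0.55, adjusted p = 0.0478) rested on Blm Recql KO replicate 1, since without it the difference was 0.58 (adjusted p = 0.234). It was also lost on leaving out any other library except Blm Recql KO replicates 2 and 3 (adjusted p = 0.054 to 0.149), and with the replicate block (0.0914 as adjusted p), the compared genotypes alone (0.119), no filter on low counts (0.0729), the Y-linked covariate (0.0544) and the Y-high libraries alone (0.845).

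Ratios of chain levels per kilobase of transcript show how the balance within and between fibre types differed, and do not depend on library scaling. For 11 ratios, an exact permutation test of 3 against 3 libraries could not give a two-sided p below 0.1, so none could pass 0.05. Col3a1 to Col1a1 was 0.105, 0.105 and 0.144 in Recql KO, against 0.288, 0.298 and 0.291 in WT, which is 0.399 of the WT ratio without overlap (exact permutation p = 0.1, adjusted p = 0.22 over the 11 ratios). It was 0.380, 0.261 and 0.366 in Blm KO and 0.345, 0.272 and 0.386 in Blm Recql KO, both overlapping with WT. Col1a2 to Col1a1 overlapped between Recql KO (0.721, 0.714 and 0.664) and WT (0.764, 0.778 and 0.614). Its 3 Blm KO libraries (0.858, 0.948 and 0.909) lay above all WT libraries (exact permutation p = 0.1, adjusted p = 0.786).

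Between the type VI chains, Col6a3 to Col6a1 was 0.350, 0.478 and 0.496 in Recql KO, against 0.256, 0.271 and 0.155 in WT, or 1.98-fold higher without overlap (exact permutation p = 0.1, adjusted p = 0.22). Col6a2 to Col6a1 averaged 0.650 ± 0.036 in Recql KO, 0.644 ± 0.059 in Blm KO, 0.689 ± 0.032 in Blm Recql KO and 0.656 ± 0.043 in WT (SD, n = 3), with overlap between all genotypes. Col4a2 to Col4a1 averaged 0.767 ± 0.011 in Recql KO, 0.791 ± 0.048 in Blm KO, 0.698 ± 0.050 in Blm Recql KO and 0.752 ± 0.052 in WT. Col4a1 to Col1a1, a measure of basement membrane against fibrillar chains, was 0.232, 0.298 and 0.198 in Recql KO, against 0.0850, 0.150 and 0.105 in WT, 2.17-fold higher without overlap (exact permutation p = 0.1, adjusted p = 0.22). Col5a2 to Col5a1 was 1.15, 0.958 and 1.08 in Blm Recql KO, below every library of the other genotypes (1.16 to 1.53).

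**Figure D4:**
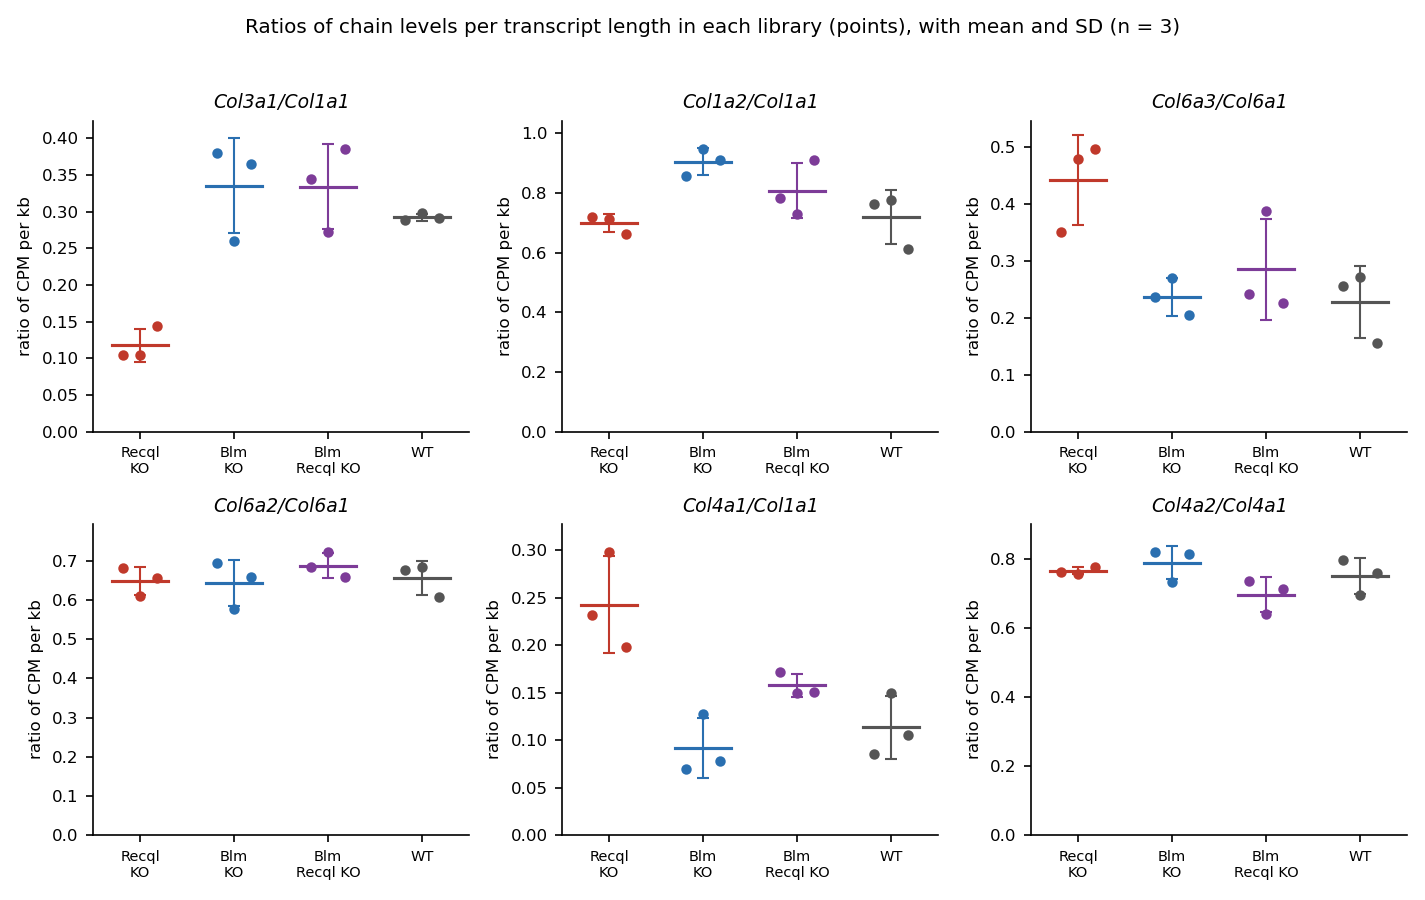
Ratios of chain levels, each as CPM per kilobase of transcript (vertical axes, from 0), in the 3 libraries of Recql KO, Blm KO, Blm Recql KO and WT (points), with mean (line) and SD (bar). Col3a1/Col1a1 is at most 0.144 in Recql KO and at least 0.261 elsewhere, Col6a3/Col6a1 is higher in Recql KO than in WT, and Col6a2/Col6a1 and Col4a2/Col4a1 overlap between Recql KO and WT.

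The interaction term asks whether the difference that goes with the Recql label in Blm-deficient libraries (Blm Recql KO minus Blm KO) is the same as that in Blm-intact libraries (Recql KO minus WT). It was called for 3 chains, all positive (8.33% of the members, against 5.86% positive, 4.58% negative and 10.4% in either direction of all genes). For Col3a1 the log2 fold change was -0.08 between Blm Recql KO and Blm KO and -2.13 between Recql KO and WT, an interaction of 2.06 ± 0.40 (adjusted p = 0.0133). For Col14a1 the differences were 0.50 and -1.57 (interaction 2.07 ± 0.53, adjusted p = 0.0352), and for Col1a1 -0.03 and -0.85 (0.82 ± 0.22, adjusted p = 0.0392). Col3a1 was called when any 1 library was left out, and lost the call only among the Y-high libraries alone (1.67, adjusted p = 0.085). Col14a1 kept its call in 5 and Col1a1 in 2 of the 12 fits that left out 1 library. The number of chains called ranged from 1 to 9 in those fits, with 9 without Blm KO replicate 1 and 1 without Recql KO replicate 1, Blm KO replicate 2 or 3, Blm Recql KO replicate 2 or WT replicate 2 or 3. Col1a2 (0.70 ± 0.21, adjusted p = 0.0597) was not called.

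Genes that act on collagen were taken from 6 lists. Of 20 genes for hydroxylation, folding and glycosylation of collagen chains, 7 were lower and 1 was higher in Recql KO than in WT, where 15.6% of all genes were lower and 14.2% higher. Serpinh1, which encodes the collagen chaperone HSP47, had 1402, 1292 and 1256 CPM in Recql KO, against 2046, 2058 and 2165 CPM in WT (-0.67 ± 0.09, adjusted p = 0.000945). The foldases Ppib (-0.38 ± 0.08, adjusted p = 0.00632) and Fkbp10 (-0.47 ± 0.10, adjusted p = 0.0064) and the prolyl 3-hydroxylase gene P3h1, listed as Lepre1 (-0.40 ± 0.09, adjusted p = 0.00782), were also lower. The 1 higher gene was P4ha2, a subunit of prolyl 4-hydroxylase, named after its values were seen (0.32 ± 0.11, adjusted p = 0.047). Comparing Blm Recql KO with Recql KO, 5 of these 20 were higher and 0 lower, against 13.2% and 11.6% of all genes. In Blm KO and in Blm Recql KO against WT, edgeR called 0 of the 20 (0.753% and 0.121% of all genes). At an unadjusted p under 0.05 there were 6 and 1 of the 20, against 18.9% and 10.8% of all genes. The median log2 fold change of the list in Recql KO was -0.17.

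Of 12 tested genes for cleavage and crosslinking, Tll1 and Loxl2 were higher and Loxl1 was lower in Recql KO than in WT and 9 were not called, where 29.9% of all genes were called in either direction. Tll1, a procollagen C-proteinase of the tolloid family, had 387, 375 and 295 CPM in Recql KO, against 77.9, 121 and 68.3 CPM in WT (1.98 ± 0.31, adjusted p = 0.00159). Loxl2, a lysyl oxidase that crosslinks type IV collagen among others, had 1356, 1239 and 1199 CPM in Recql KO and 1335, 1790 and 1123 in Blm Recql KO, against 558, 908 and 601 CPM in WT (0.88 ± 0.20, adjusted p = 0.0087 for Recql KO). Loxl2 was the 1 gene of this list called in Blm Recql KO against Blm KO (1.24 ± 0.20, adjusted p = 0.0192), the comparison in which Col4a1 and Col4a2 were called.

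Of 5 tested collagen-cleaving proteases, Mmp9 was higher and Mmp14 lower in Recql KO than in WT. Mmp14, a membrane collagenase, had 554, 542 and 595 CPM in Recql KO, against 700, 712 and 722 CPM in WT (-0.34 ± 0.10, adjusted p = 0.0341). Of 9 tested collagen receptor genes, Itga2 (1.43 ± 0.36, adjusted p = 0.0143) and Itgb1 (0.61 ± 0.18, adjusted p = 0.0262) were higher and Itga1 was lower (-0.92 ± 0.23, adjusted p = 0.0142); all encode subunits of collagen-binding integrins. Of 14 tested fibril regulators, 3 were higher and 3 lower. In these lists and in that of transforming growth factor beta, 2 of 5, 3 of 9, 6 of 14 and 4 of 13 genes were called, where 29.9% of all genes were. Tnxb, a tenascin tied to collagen in connective tissue (1.70 ± 0.38, adjusted p = 0.00803), and Thbs2, a thrombospondin that affects fibril assembly (0.72 ± 0.17, adjusted p = 0.0101), were higher. Sparc, a matrix glycoprotein that binds collagen, had 3166, 2745 and 3143 CPM in Recql KO, against 4140, 3989 and 4515 CPM in WT (-0.48 ± 0.10, adjusted p = 0.00535), and Tgfbi, a matrix protein that binds collagen, was lower as well (-1.85 ± 0.33, adjusted p = 0.00307). Transforming growth factor beta is a main inducer of fibrillar collagen genes. Of its 13 listed ligands, receptors and feedback genes, the ligands Tgfb3 (-1.05 ± 0.17, adjusted p = 0.00189) and Tgfb2 (-0.83 ± 0.14, adjusted p = 0.00233) were lower in Recql KO, and the inhibitor Smad7 (0.71 ± 0.21, adjusted p = 0.0282) and the coreceptor Tgfbr3 (0.68 ± 0.23, adjusted p = 0.0474) were higher. In Blm KO and in Blm Recql KO against WT, edgeR called 0 genes of these 5 lists (0.753% and 0.121% of all genes). The next counts take cleavage and crosslinking, proteases, receptors, fibril regulators and transforming growth factor beta in turn. At an unadjusted p under 0.05, Blm KO had 0 of 12, 2 of 5, 2 of 9, 2 of 14 and 0 of 13 tested genes, against 18.9% of all genes. Blm Recql KO had 4 of 12, 2 of 5, 4 of 9, 4 of 14 and 1 of 13, against 10.8% of all genes. Tll1 and Loxl2 held values that were not whole in 12 libraries and Mmp14 in 11.

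Summed markers of some other cell types were lower in Recql KO than in WT, and their part in the collagen differences was not tested. Of all tested genes, 15.6% were lower and 14.2% higher in this comparison. The 6 cartilage chains summed to 188 to 306 CPM in Recql KO, against 1026 to 2376 CPM in WT, and 5 of them were called lower. The 12 chondrocyte markers summed to 48.2 to 68.1 CPM in Recql KO, against 123 to 205 CPM in WT, with 6 of 10 tested lower and 5 under 1 CPM in every Recql KO library, against 4 in WT. Endothelial markers summed to 3.41 to 5.25 CPM in Recql KO, against 21.6 to 30.9 CPM in WT (4 of 7 tested lower), and 7 of the 8 were under 1 CPM in every Recql KO library, against 3 in WT. Epithelial and mesothelial markers summed to 12.2 to 20.8 CPM in Recql KO, against 43.0 to 132 CPM in WT (5 of 8 tested lower). The next 2 lists overlapped with WT in their sums. Osteoblast markers, of which 2 of 7 tested were lower, summed to 556 to 873 CPM in Recql KO, against 434 to 706 CPM in WT. Smooth muscle markers, of which 3 of 8 were lower, summed to 4601 to 6518 CPM in Recql KO, against 4287 to 5755 CPM in WT. Among the macrophage and blood, skeletal muscle and adipocyte markers, 2 of 8, 2 of 3 and 2 of 4 tested were lower. The skeletal muscle markers summed to 0.126 to 0.293 CPM in Recql KO, against 0.937 to 2.16 CPM in WT. At such levels they passed the filter on low counts only through other genotypes, so their calls are no support. Of 7 tested Schwann and neural markers 1, Tubb3, was higher. Of the 10 fibroblast markers, Twist2 and Dcn were higher and Twist1 was lower. Their sum was also lower in Recql KO without overlap (5832 to 6531 CPM, against 6684 to 7245 CPM in WT). Every Recql KO library was below every WT library in 4 of the 10 and above in 2, against 25.4% and 23.9% of all genes. In Blm Recql KO the chondrocyte markers summed to 89.2 to 107 CPM and the cartilage chains to 748 to 1830 CPM, and in Blm KO to 172 to 242 CPM and 1472 to 1676 CPM.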

How the data were processed

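Expected counts per gene, which need not be whole, were deposited by the authors for 12 libraries of primary mouse embryonic fibroblasts. Per the submitters' processing notes, RSEM 1.2.15, Bowtie2 2.1.0 and mm10 were used, and a KAPA Stranded mRNA kit served for library preparation, per the labels' protocols. The annotation version, strand setting and filters are not given in the sources used here. Between 17.4% and 20.2% of values per library were not whole (tolerance 0.001). They were rounded before testing.

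Groups were taken from the genotype labels. All 12 libraries entered 1 fit in R 4.3.3 with edgeR 4.0.16: TMM scaling (factors 0.96 to 1.03), edgeR's expression filter (14876 of 24054 genes kept), a robust quasi-likelihood fit with F tests, and p-values adjusted by Benjamini-Hochberg over all tested genes. The fit had 8 residual degrees of freedom, and its common coefficient of biological variation was 0.209. The 6 comparisons included the interaction of the Blm and Recql labels. The same steps were tested on simulated data. A floor of 3 counts equals 0.0508 to 0.0614 CPM, and the interval of a ratio of counts covers counting error only. CPM per kilobase used the transcript with the longest coding sequence in GENCODE vM21. Promoter windows came from RefSeq. No pair of libraries within a genotype agreed within sampling noise (chi-square per degree of freedom at least 25.5).

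Alternatives were RLE scaling, TMM without the collagen rows, 2 other filters on low counts, DESeq2 1.42.0, the compared genotypes alone, the replicate number as a block, thinning to the smallest library, a covariate of Y-linked transcripts, only the libraries high in them, and leaving out each library in turn. The text names Col1a1, Col1a2, Col3a1, Col5a1, Col5a2, Col4a1, Col4a2, Col6a1, Col6a2 and Col6a3, each chain past the threshold, and up to 4 genes per other list with the smallest adjusted p. Other chains are described to account for every member. Members, lists and tests were chosen with earlier results of these data known.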

Additional observations from a re-analysis of the deposited data

Results flagged for a closer look

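For 3 collagen chains the difference that goes with the Recql label was not the same in Blm-deficient and in Blm-intact libraries, by edgeR's test of the interaction with Benjamini-Hochberg adjustment. All 3 differences were positive, 8.33% of the 36 tested chains, against 5.86% positive and 10.4% in either direction of all genes. The interaction of Col3a1 was 2.06 ± 0.40 on the log2 scale (adjusted p = 0.0133), past the threshold in 20 of 21 alternatives. That of Col14a1 was 2.07 ± 0.53 (adjusted p = 0.0352), past the threshold in 11 of 21 alternatives, with adjusted p from 0.00109 to 0.325. That of Col1a1 was 0.82 ± 0.22 (adjusted p = 0.0392), past the threshold in 8 of 21 alternatives, with adjusted p from 0.00273 to 0.287. In each of the 3 genes the level was low in the 3 libraries labelled Recql KO and not in those labelled Blm Recql KO, and the Recql transcript was not called lower than in WT in either.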

How the results depend on the processing

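Col1a1, Col3a1, Col6a1 and Col6a2 were called lower in Recql KO than in WT in all 22 alternatives. Among the Y-high libraries alone, with 1 library per KO genotype, the chains called numbered 4 in place of 11 for Recql KO against WT, 0 in place of 2 for Blm Recql KO against Blm KO, 6 in place of 13 for Blm Recql KO against Recql KO and 0 in place of 3 for the interaction. The median log2 fold change of the chains was -0.82 there in place of -0.45, 0.043 in place of 0.25, 1.11 in place of 0.79 and 0.61 in place of 0.60 for the interaction, in the same order. DESeq2 called 4 chains in Blm KO against WT and 4 in Blm Recql KO against WT, in place of 0 each, 4 in Blm Recql KO against Blm KO and 7 for the interaction. The interaction was called for 1 chain without a filter on low counts and for 1 with the Y-linked covariate. The fit of the compared genotypes alone called 0 in Blm Recql KO against Blm KO. Leaving out 1 library at a time gave 7 to 13 for Recql KO against WT, 0 to 2 for each of Blm KO against WT, Blm Recql KO against WT and Blm Recql KO against Blm KO, 9 to 14 for Blm Recql KO against Recql KO and 1 to 9 for the interaction. The cause was not tested.

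Same-numbered libraries correlated at -0.168 to 0.227 in their deviations (median 0.042), over 0.1 in 5 of 18 pairs. For libraries with different numbers it was -0.312 to 0.227 (median -0.011), over 0.1 in 5 of 36 pairs. No clear pairing by replicate number was seen, and a weak one cannot be told from these values. With the replicate block, 1 chain (Col4a1) was called in Blm Recql KO against WT in place of 0, and the counts in the other comparisons were within 1.5 times.

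Over all genes the counts moved more widely. In the order Recql KO, Blm KO and Blm Recql KO against WT, Blm Recql KO against Blm KO, Blm Recql KO against Recql KO and the interaction, they were 4444, 112, 18, 291, 3681 and 1554. Among the Y-high libraries alone they were 1128, 2, 3, 0, 373 and 5. Leaving out 1 library gave 2692 to 4964, 31 to 572, 8 to 28, 9 to 585, 2157 to 3875 and 549 to 1836. Counts more than 1.5 times away were also 954 in Blm KO against WT, 337 in Blm Recql KO against WT, 1398 in Blm Recql KO against Blm KO and 2618 for the interaction with DESeq2, 50 and 762 with the replicate block in Blm Recql KO against WT and against Blm KO, 0 and 8 there with the compared genotypes alone, and 43, 43 and 820 with the Y-linked covariate in Blm KO and Blm Recql KO against WT and in the interaction.

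Signs turned only in differences that were not called. Among the Y-high libraries alone, Col6a3 was at -0.30 in Recql KO against WT, 0.18 in Blm Recql KO against Blm KO and 0.48 in the interaction, Col4a1 at -0.11 in Blm KO against WT and Col5a1 at 0.054 in Blm Recql KO against Blm KO. With the Y-linked covariate, Col4a1 was at -0.020 in Blm KO and Col5a1 at 0.0017 in Blm Recql KO against Blm KO. With 1 library left out, Col6a3 lay between -0.15 and 0.32 in Recql KO against WT, -0.29 and 0.10 in Blm Recql KO against Blm KO, -0.0098 and 0.55 in Blm Recql KO against Recql KO and -0.43 and 0.12 in the interaction. Col4a1 lay between -0.11 and 0.25 in Blm KO against WT. In Blm Recql KO against Blm KO, Col5a1 lay between -0.050 and 0.021, Col1a1 between -0.16 and 0.075 and Col3a1 between -0.33 and 0.13.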
